A study of Mus musculus with 38 samples.

Results

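Long noncoding RNA genes with counts in ribosome profiling libraries were examined in primary mouse cortical neurons. These counts are called footprints here, and whether they come from ribosomes was not tested. The genes were chosen from the GENCODE M21 annotation: every transcript without an annotated coding sequence whose gene type was lincRNA, antisense or processed_transcript was taken, the longest transcript of each gene was kept, and genes overlapping a coding segment on their own strand were dropped. This left 9253 genes of 31706 coding and long noncoding RNA genes in all, made up of 5591 lincRNA, 2949 antisense and 713 processed_transcript genes. Footprints were counted in 3793 of them (41.0%), and the other 5460 had no count in any library.

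The study profiled ribosomes in 38 libraries that form 14 groups, 10 groups of 3 replicates and 4 groups of 2. Neurons were prepared from embryonic cortex of wild-type CD-1 mice, and expressed a biotin ligase from a doxycycline-inducible lentivirus. TurboID-PSD95 carries the ligase to the postsynaptic density of dendrites through PSD95, and Pan-TurboID has no localization signal and labels the whole cell. All cultures received cycloheximide for 2 min and then biotin for 30 min by the labels (a shorter pulse is given in the methods for DHPG). In each, footprints of the total monosomes (input) and of the monosomes captured on streptavidin beads (pulldown) were sequenced. In the first experiment (24 libraries), neurons of both baits were left at rest, or were silenced for 2 h in tetrodotoxin and DL-AP5 and then depolarized for 1 h with 55 mM KCl. In a second (6 libraries), silenced TurboID-PSD95 neurons received DHPG, which activates group I metabotropic glutamate receptors, at 100 µM during 10 min. In a further one (8 libraries), TurboID-PSD95 neurons received 20 nM siRNA against eIF4G2, an initiation factor, for 72 h. They were then kept at rest, or were silenced for 2 h and depolarized for 1 h with 55 mM KCl. Input and pulldown in the DHPG experiment come from treated neurons alone, the knockdown experiment has no control siRNA libraries here, and pulldowns without biotin were not analysed here. The study describes its replicates as biologically independent, with several dishes combined in each.

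Long noncoding RNAs are transcripts without a recognized long open reading frame. Some act in the nucleus, such as Xist in X inactivation and Malat1 in nuclear speckles, whereas others are exported and contact ribosomes. Many also serve as hosts: small nucleolar RNAs (snoRNAs) that guide rRNA modification and microRNAs are cut from their introns or exons, so the spliced host and the small RNA it releases can end up in different compartments. In neurons, Bc1 is known as a dendritic RNA, and Meg3, Miat and Dlx6os1 as abundant or lineage-restricted nuclear transcripts.

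What the counted exons contain determines how their footprints read, and several of the most abundant members are annotated over another RNA. B930036N10Rik, an antisense gene at chr1:171500568-171504111 (mm10, minus strand), held 311053 of its 311107 counts within the small nuclear RNA (snRNA) gene Gm24871, which lies inside its single exon. 2900060B14Rik, an antisense gene at chr1:118458652-118459267 (minus strand), held 99.7% within the snRNA gene Gm22710. Gm10076, at chr14:105681828-105682211 (plus strand), has an open reading frame of 78 bases that is found whole in a coding transcript of Rpl41, a protein of the large ribosomal subunit, and RefSeq lists it as a pseudogene. The opening 30 bases of the 2 reading frames are identical and are shown because a footprint within them can come from either gene. The part printed of the snRNA Gm22710 is its first 30 bases, along its own strand. Capitals mark the start codon in Gm10076 and Rpl41.
Gm22710, chr1:118459236-118459265, minus strand: accatccttttcttggggttgcgctactgt
Gm10076, chr14:105681869-105681898, plus strand: ATGagagcgaagtggcggaagaagagaatg
Rpl41: ATGagagcgaagtggcggaagaagagaatg

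The microRNA hosts described below hold the microRNA either inside the counted exons or in an intron. Mir22hg held 26.5% of its counts in the Mir22 hairpin. The hairpin of Mir9-2 took 0.236% of the counts of C130071C03Rik, and the hairpins of miR-132 and miR-212 lie between the first and second exons of 1700016P03Rik, outside the counted segments. Mature sequences are from RefSeq (GRCm38.p6), with the seed (bases 2 to 8) in capitals. The 3p forms of miR-132 and miR-212 share a seed, and all others differ.
miR-22-5p: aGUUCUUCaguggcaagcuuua
miR-22-3p: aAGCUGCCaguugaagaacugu
miR-9-5p: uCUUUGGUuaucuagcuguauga
miR-9-3p: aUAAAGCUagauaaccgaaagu
miR-132-3p: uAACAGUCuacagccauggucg
miR-212-3p: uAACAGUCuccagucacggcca

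Counts were scaled to the coding sequence (CDS) total of each library, which ranged from 2047010 to 14635134, and are given as counts per 1000000 CDS counts (CPM). Markers of the cell types a cortical culture can hold were summed as a check of the labels, with all 6 pan-neuronal genes and all 5 genes of each glial list measured. The sum was 5910 to 9960 CPM for pan-neuronal genes in inputs and 0.759 to 5.67 CPM for microglial genes. Astrocyte markers summed to 80.8 to 771 CPM in inputs and 78.2 to 886 in pulldowns, and oligodendrocyte markers to 26.7 to 240 in inputs and 8.57 to 106 in pulldowns (medians 104 and 38.9, with overlapping ranges). The DHPG libraries stood apart, with astrocyte sums of 80.8 to 85.4 CPM in inputs and 78.2 to 87.1 in pulldowns. In the other experiments these sums were 282 CPM or more. Oligodendrocyte sums in DHPG inputs were 26.7 to 31.2 CPM. The part of these cells in the results was not tested, and in cultures of mixed cells fewer cells of a type cannot be told apart from less RNA per cell. Immediate early genes summed to 392 to 734 CPM in resting and 4450 to 6540 CPM in depolarized inputs of the KCl experiment. In the DHPG inputs they summed to 168 to 189 CPM, below the resting inputs of the KCl experiment, which is a comparison across experiments that was not tested. Eif4g2 itself stood at 284 to 338 CPM in the knockdown inputs and 456 to 811 CPM in the inputs of the KCl experiment, a comparison across experiments that was not tested.

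Footprints in long noncoding RNA genes were few and concentrated. On average over all libraries 418 genes reached 1 CPM, 63 reached 10 CPM and 7 reached 100 CPM, and 116 were counted in all 38 libraries. A count was seen in 68.9% of processed_transcript, 47.9% of antisense and 33.8% of lincRNA genes. Of the 418 genes at 1 CPM or more, 49 overlapped a small RNA gene on their own strand, with the type misc_RNA included. Leaving misc_RNA aside, 22 drew over 10% of their counts from small RNA genes and 5 over 90%. Counts in misc_RNA elements, such as 73.0% of those of Sox2ot, are not in these shares. In 35 of them over 50% of the 25-base words of the transcript occur more than once in the genome. RefSeq lists 262 of the 418 as lncRNA and 14 as protein_coding, and 127 have no entry under their symbol.

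The largest single contribution came from Gm42418, a lincRNA at chr17:39846958-39848788 (plus strand) within a locus known to hold ribosomal RNA sequence. It averaged 24400 CPM and made up 35.3% to 92.6% of all counts of the class in a library. Its level spanned 2050 to 59700 CPM among resting TurboID-PSD95 inputs, and their pulldowns spanned 4470 to 64700 CPM. Shares are therefore also given without this locus and Gm26917, AY036118 and Gm15564.

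Setting the ribosomal RNA loci aside, B930036N10Rik had the highest mean over inputs and pulldowns together, at 1640 ± 2020 CPM (SD, n = 38), followed by Malat1, a nuclear speckle RNA, at 992 CPM, and Meg3, an imprinted RNA of the Dlk1-Dio3 region, at 496 CPM. Gm10076 averaged 369 CPM and Rmrp, the RNA of the endonuclease RNase MRP, 234 CPM. This order does not describe the inputs. In the 19 inputs Gm10076 had the highest mean (542 CPM), ahead of B930036N10Rik (335), Malat1 (173), 2410006H16Rik (125), Rmrp (109) and Meg3 (92.2), and Gm10076 lay above Malat1 and Meg3 in the inputs of the DHPG and knockdown experiments without overlap. In the 19 pulldowns B930036N10Rik (2950 CPM), Malat1 (1810) and Meg3 (901) led, with Gm10076 at 195 CPM. Per kilobase of exon, over all libraries, the order was again different. Gm10076 (960 CPM per kb) and Rmrp (832) led, ahead of B930036N10Rik (463), 2410006H16Rik (180), Malat1 (142) and Gm27000 (134). This order depends on the annotated length. B930036N10Rik is divided by its exon of 3544 bases, although nearly all its counts lie in the snRNA gene Gm24871 (chr1:171503048-171503163). Meg3 stood at 34.1, Miat at 8.97, Xist at 0.329 and Kcnq1ot1, a paternally expressed silencing RNA whose transcript is the longest of those named, at 0.0352 CPM per kb.

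**Figure D1:**
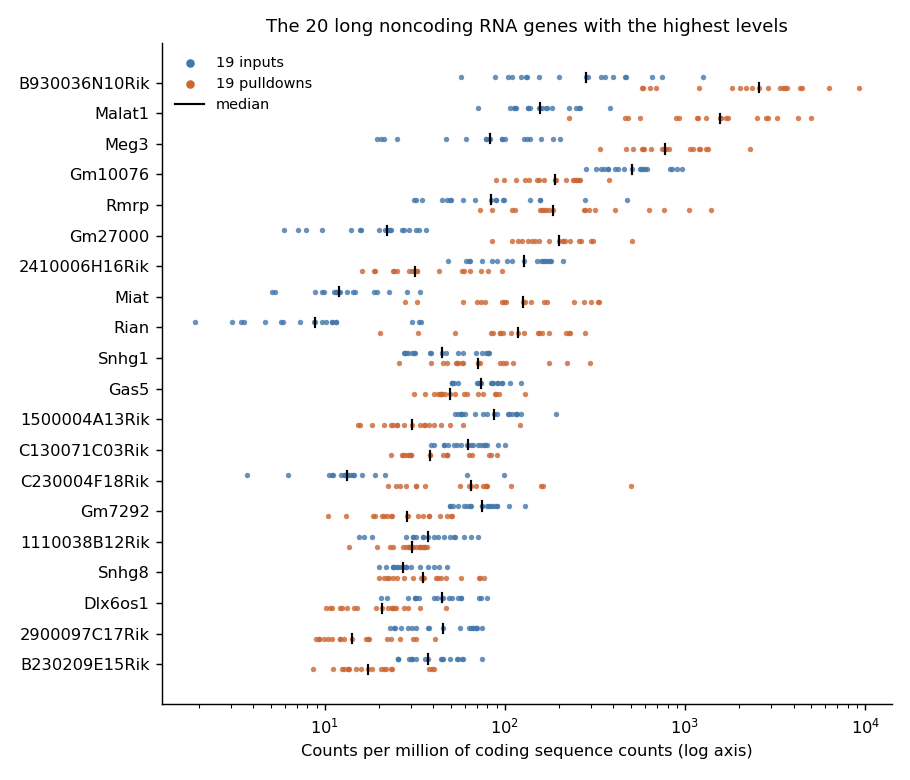
Levels of the 20 long noncoding RNA genes with the highest mean, as CPM (counts per 1000000 CDS counts) on a log axis, with 1 point per library (19 inputs above, 19 pulldowns below) and a bar at the median; the ribosomal RNA loci are left out. Malat1, Meg3, Gm27000, Miat and Rian lie to the right in pulldowns, and Gm10076, 2410006H16Rik, Dlx6os1 and 2900097C17Rik to the left.

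The footprints of Gm27000 cannot be assigned to it alone. Gm27000 is a single-exon gene on the X chromosome (chrX:88759471-88760312, minus strand), and 793 of its 818 words of 25 bases are found in an isoform of Meg3. None occurs in the Meg3 transcript counted here, and 6 of 11 Meg3 isoforms share any. Its level followed that of Meg3 in direction in each pulldown comparison described below.

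The share of footprints that fell in long noncoding RNA genes was 0.581 to 11 counts per 100 CDS counts, with a median of 1.74. Over the 12 cultures of the KCl experiment it was 1.09-fold higher in the pulldown than in the input of the same culture, which did not pass an exact sign-flip permutation test (two-sided p = 0.476, adjusted over 3 share comparisons 0.688). Without the ribosomal RNA loci the share was 0.376 to 0.621 in these inputs and 0.592 to 1.74 in the pulldowns. It was 1.73-fold higher in the pulldown, in 12 of 12 cultures (exact permutation p = 0.000488, the smallest that 12 pairs allow; adjusted 0.00146). The 12 cultures come from 3 biological replicates, each processed together by the methods, and are not fully independent. Averaged within replicates the share was 2.44-, 1.27- and 1.67-fold higher (exact permutation p = 0.25, the smallest that 3 replicates allow). B930036N10Rik, an snRNA by content, carried much of this: without it the share was 1.2-fold higher (exact permutation p = 0.0938). Leaving out all counts in annotated small RNA genes, an alternative added after the data were seen, gave 1.12-fold (exact permutation p = 0.256). Restricted to genes whose exons overlap no other gene, the share was lower in pulldowns, at 0.483-fold of the input (exact permutation p = 0.000488 over cultures). By replicate it was at 0.459-, 0.554- and 0.443-fold (p = 0.25 in the exact permutation test). Gm10076, with the reading frame of Rpl41, had the highest mean level of this set (369 CPM), and its pulldown was higher in 0 of 12 cultures. The share without Gm10076 was not computed.

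**Figure D2:**
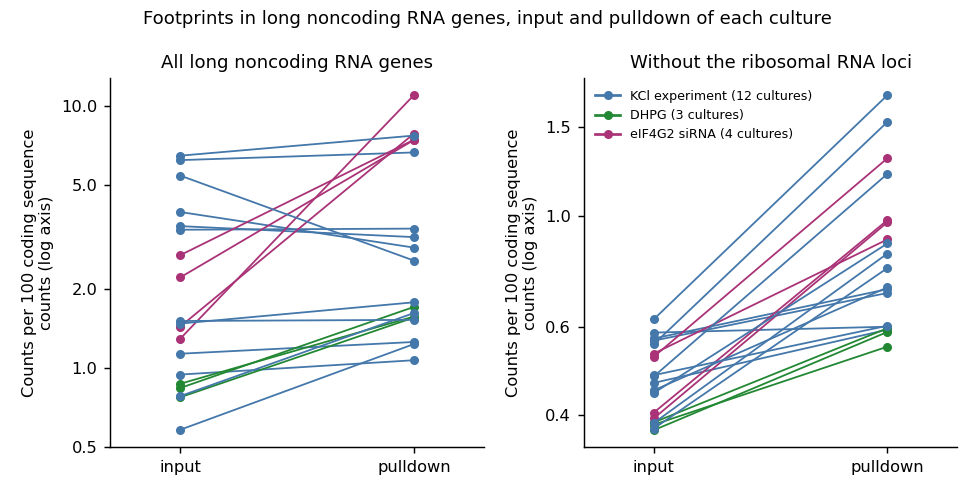
Counts in long noncoding RNA genes per 100 CDS counts in the input and pulldown of each culture (log axis), for all of them (left) and without the ribosomal RNA loci (right); each line joins 1 culture. On the right every line rises from input to pulldown, with inputs between 0.373 and 0.621.

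Differences in counts between pulldown and input were tested gene by gene, in a single fit of coding and long noncoding RNA genes for each experiment (edgeR quasi-likelihood test). Whether the counts of a gene come from captured ribosomes was not tested. FDR denotes the Benjamini-Hochberg adjusted p over all genes of a fit, and 0.05 was the limit. Enough counts for testing were present for 477 long noncoding RNA genes in the KCl experiment, 319 in the DHPG and 284 in the knockdown experiment; 504 were tested in at least 1 of them, and 8749 in none. At rest, against the mean of both inputs, 26 of 477 were higher in the TurboID-PSD95 pulldown and 95 were lower, where 30.9% of all 13491 genes were called, 14% higher and 16.9% lower. Their median log2 fold change was -1.16, beside -0.08 over all genes. After KCl, 16 were higher and 23 lower (17.4% of all genes called, 11% higher and 6.41% lower, with a median of -0.74 beside -0.03). With the replicate number within a condition as a block, shared by both baits, 19 were higher and 61 lower after KCl. The calls over all genes rose as well, to 16.7% higher and 15.5% lower. Pan-TurboID pulldowns against their own inputs had 15 higher and 117 lower (33.8% of all genes called, 16.2% higher and 17.6% lower, with a median of -0.96 beside -0.05).

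The same fraction in the separate experiments gave more calls for all genes. After DHPG 57 of 319 were higher and 209 lower (79.9% of all 12559 genes called, 40.0% higher and 39.9% lower), with a median of -1.15 beside 0.02. In eIF4G2 knockdown neurons 52 of 284 were higher and 114 lower (59.5% of 12516 genes called, 27.5% higher and 32% lower), with a median of -0.89 beside -0.05. Of the genes higher at rest and tested in both, 22 of 22 were also higher after DHPG (43.1% of the 51 higher there), and 76 of 81 lower genes (93.8%; 38% of the 200 lower there) were lower there. Over all genes tested in both, the corresponding shares were 98.6% of the higher and 97.4% of the lower. In knockdown neurons 21 of 24 of the higher genes were higher (87.5%, beside 83.2% over all genes) and 52 of 73 of the lower genes were lower (71.2%, beside 88% over all genes). 1110038B12Rik was called in opposite directions, lower at rest (log2 -0.93, FDR = 0.0169, or 0.15 without replicate 3 and 0.0676 without replicate 2) and higher after DHPG (log2 0.98); counted over the transcript with the highest count it was at 4.77 at rest. In all 3 experiments 18 genes were higher (7.44% of 242 tested in each) and 52 lower (21.5%), beside 12.9% and 16.2% of all 12018 genes tested in each. Leaving out replicate 3 reduced the calls at rest from 121 to 6, and replicate 2 to 59. Over all genes the calls fell from 4169 to 35 and 2351. Of 37 genes named by rule and called at rest, 6 passed whichever replicate was left out (Meg3, Gm27000, Rian, Miat, Gm26945 and 2900060B14Rik), as did 49 of 56 after DHPG.

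The genes higher in pulldowns included RNAs known for nuclear retention. Of the 26 higher at rest, 6 were on the list of nuclear-retained RNAs, and 16 overlapped a small RNA gene on their own strand, with misc_RNA included. Of the whole list, 6 of 10 tested were higher at rest (Meg3, Rian, Firre, Miat, Malat1 and Mirg), 2 were lower (Pantr1 and Pvt1), and the list median was 2.85. The median was 2.57 after KCl (6 higher and none lower), 2.28 in Pan-TurboID (6 higher and 2 lower), 2.86 after DHPG (8 higher and 2 lower of 10) and 3.63 in the knockdown experiment (8 higher and 2 lower of 11). Of all genes, 14% were higher and 16.9% lower at rest, 11% and 6.41% after KCl, 16.2% and 17.6% in Pan-TurboID, 40.0% and 39.9% after DHPG, and 27.5% and 32% in knockdown neurons, so that the counts of the last pair stand on a higher background.

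Meg3, at chr12:109545398-109571726 (plus strand), had 1310, 1210 and 1340 CPM in the resting TurboID-PSD95 pulldowns. It had 95.9, 186 and 100 CPM in their inputs, and 127, 202 and 95.8 CPM in the resting Pan-TurboID inputs. Pulldowns and inputs of the KCl experiment did not overlap, and the pulldown was higher in 12 of 12 cultures. The log2 fold change at rest was 3.27 ± 0.44 (SE; FDR = 0.000251), or 9.66-fold. After DHPG, Meg3 stood at 819, 784 and 770 CPM in pulldowns and 83.0, 78.9 and 81.6 CPM in inputs (log2 3.49 ± 0.07). In knockdown neurons it reached 337 to 586 CPM in 4 pulldowns and 19.6 to 25.3 CPM in 4 inputs, again without overlap (log2 4.58 ± 0.12).

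Rian and Mirg lie in the same imprinted region as Meg3 and carry snoRNAs and microRNAs. Rian ranged from 20.3 to 175 CPM in the 12 pulldowns of the KCl experiment and from 1.91 to 11.5 CPM in its 12 inputs. These ranges do not overlap, and the log2 fold change at rest was 3.91 ± 0.59 (FDR = 0.000492). Mirg was at 8.25, 15.9 and 10.7 CPM in resting TurboID-PSD95 pulldowns, above each resting input (0.759 to 4.18 CPM), with a log2 fold change of 2.66 ± 0.59 (FDR = 0.0697 without replicate 3). Gm26945, an unnamed lincRNA between Meg3 and Rian (chr12:109633975-109642445), had 30.8, 14.8 and 19.1 CPM in these pulldowns and 0.520 to 2.04 CPM in the resting inputs (log2 4.50 ± 0.67, FDR = 0.000208). Of the imprinted list, 3 of 6 were higher at rest (Meg3, Rian and Mirg) and none lower, and the same 3 were higher after KCl and in Pan-TurboID. After DHPG 6 of 6 were higher, and in knockdown neurons 6 of 7, with none lower. Over all genes 14%, 11%, 16.2%, 40.0% and 27.5% were higher in these 5 comparisons. Meg3, Rian and Mirg are also on the nuclear-retained list and on a list of snoRNA or microRNA hosts, so that counts of these lists are not independent.

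Miat, a nuclear RNA of neurons, ranged from 27.7 to 171 CPM in pulldowns and 5.12 to 19.5 CPM in inputs of the KCl experiment, without overlap. Its log2 fold change was 3.08 ± 0.38 at rest (FDR = 0.000138), 3.67 ± 0.11 after DHPG and 4.30 ± 0.14 in knockdown neurons. Of its counts, 18.4% fell in RNA elements annotated inside its exons. Malat1 was more variable. It had 1740, 480 and 1310 CPM in resting TurboID-PSD95 pulldowns and 112 to 160 CPM in the 6 resting inputs (log2 3.05 ± 0.74, FDR = 0.0065), and without replicate 3 the FDR was 0.128.

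Firre, an X-linked RNA that organizes nuclear contacts, had 22.2, 31.6 and 30.8 CPM in resting TurboID-PSD95 pulldowns and 1.14 to 8.15 CPM in resting inputs (log2 3.17 ± 0.54, FDR = 0.000546, or 0.0577 without replicate 3). In the depolarized knockdown inputs it had no count, so that its fitted value in that experiment is no measured ratio; the pulldowns held 6.11 to 39.7 CPM. Xist, the RNA of X inactivation, behaved differently between experiments. In the KCl experiment its pulldowns (0.683 to 15.1 CPM) overlapped its inputs (0 to 3.8 CPM), with a log2 fold change at rest of 0.29 and an FDR of 0.837. After DHPG it had 8.45, 8.33 and 8.56 CPM in pulldowns against 2.08, 2.02 and 1.46 CPM in inputs (log2 2.37 ± 0.24), and in knockdown neurons 26.7 to 40.0 against 1.40 to 4.80 CPM (log2 3.44 ± 0.30). The difference between experiments was not tested.

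**Figure D3:**
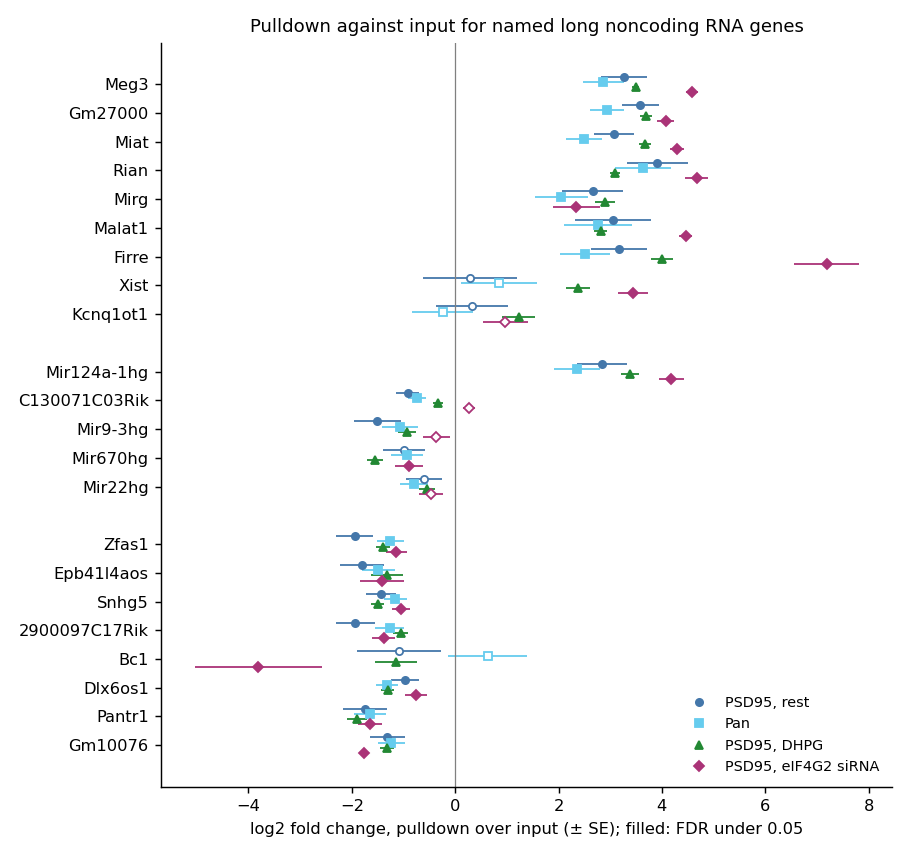
Log2 fold change of pulldown over input with its SE, in 4 comparisons, where filled symbols passed an FDR of 0.05. The groups are chosen nuclear RNAs with Gm27000 (top), microRNA hosts (middle) and genes mostly lower in pulldowns (bottom). The top group is not all nuclear RNAs: Pantr1 of the nuclear-retained list and Dlx6os1 are at the bottom, and Pvt1 is not shown. All 3 were lower at rest. Meg3 to Firre lie between 2.06 and 7.19 in all 4, Zfas1 and Snhg5 lie below 0 in all 4, and the value of Firre in knockdown neurons rests on inputs that include 2 without a count.

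Of the list of RNAs known from the cytoplasm, 1 of 9 was higher (Snhg1, see the snoRNA hosts) and 3 were lower at rest: Zfas1, Epb41l4aos and 2900097C17Rik. With so few members this is near the 14% higher and 16.9% lower over all genes, and nothing particular to the list is read from it. After DHPG 4 of 8 were higher (Snhg1, Gas5, Tug1 and Dancr) and 4 lower (those 3 and Bc1), and in knockdown neurons 3 of 8 were higher (Snhg1, Tug1 and Dancr) and the same 4 lower, beside 40.0% and 39.9%, and 27.5% and 32%, of all genes. After KCl 1 was higher (Tug1) and 1 lower (2900097C17Rik), and in Pan-TurboID none was higher and 4 were lower (Gas5, Zfas1, Epb41l4aos and 2900097C17Rik), beside 11% and 6.41%, and 16.2% and 17.6%, of all genes. Zfas1, a snoRNA host at chr2:167062934-167065862 (plus strand), had 12, 15.9 and 6.35 CPM in resting TurboID-PSD95 pulldowns and 27, 61.9 and 55.9 CPM in their inputs, without overlap. Its log2 fold change fell by 1.94 ± 0.36 (FDR = 0.000806, or 0.0697 without replicate 3), and the pulldown was higher in 0 of 12 cultures. After DHPG it had 7.73, 7.60 and 7.97 CPM in pulldowns and 24.4, 23.0 and 23.0 CPM in inputs.

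2900097C17Rik is the mouse counterpart of NORAD, a cytoplasmic RNA that binds Pumilio proteins. It stood at 9.23, 16.9 and 17.6 CPM in resting TurboID-PSD95 pulldowns and at 37.6 to 69.4 CPM in the 6 resting inputs, without overlap (log2 -1.93 ± 0.38, FDR = 0.00134, or 0.0728 without replicate 3). Of its 25-base words, 95.2% occur more than once in the genome. Snhg5, another snoRNA host, had 10.5, 19.4 and 13.7 CPM in these pulldowns and 32.8 to 51.0 CPM in the inputs (log2 -1.43 ± 0.30, with an FDR of 0.0762 without replicate 3). Epb41l4aos was at -1.81 ± 0.42 at rest (FDR = 0.0885 without replicate 3) and -1.31 ± 0.31 after DHPG. Dancr, a snoRNA host, had 1.19 to 1.90 CPM in DHPG pulldowns and 0.324 to 1.24 CPM in their inputs (log2 1.31 ± 0.46, FDR = 0.0134, or 0.102 without replicate 1). In knockdown neurons it had 9.50 to 22.1 CPM in pulldowns and 1.27 to 3.49 CPM in inputs, without overlap (log2 2.94 ± 0.37).

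Of the list of RNAs of neural development and interneurons, 1 of 5 tested was higher at rest (Miat) and 2 were lower (Dlx6os1 and Pantr1), with a median of -1.49. After KCl 1 was higher and 1 lower, in Pan-TurboID 1 and 3, after DHPG 1 and 3 of 4, and in knockdown neurons 1 and 2 of 5, with Miat the higher gene in each. Of all genes, 14% and 16.9% were called at rest, 11% and 6.41% after KCl, 16.2% and 17.6% in Pan-TurboID, 40.0% and 39.9% after DHPG and 27.5% and 32% in knockdown neurons, and counts out of so few members cannot be set apart from these shares. Dlx6os1 (also known as Evf2), an antisense RNA of interneurons, and Pantr1, transcribed next to Pou3f3, were lower at rest, in Pan-TurboID, after DHPG and in knockdown neurons. Dlx6os1 had 22.4, 33.8 and 15.1 CPM in resting TurboID-PSD95 pulldowns and 41.9 to 57.0 CPM in the resting inputs (log2 -0.97 ± 0.27, FDR = 0.00918, or 0.197 without replicate 3). Pantr1 had 7.55, 9.82 and 3.42 CPM in these pulldowns and 18.3 to 33.7 CPM in the inputs (log2 -1.74 ± 0.42, FDR = 0.00394, or 0.104 without replicate 3). Neither gene overlapped between these libraries. Gm10076, with the reading frame of Rpl41 printed above, was likewise lower (129, 218 and 115 CPM against 321 to 458 CPM; log2 -1.31 ± 0.34), with an FDR of 0.128 without replicate 3.

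Bc1, an RNA polymerase III transcript known from dendrites, was called higher in none of the 5 pulldown comparisons. In the KCl experiment its pulldowns had 0 to 7.99 CPM and its inputs 0 to 18.4 CPM, with the pulldown higher in 6 of 12 cultures. At rest its pulldowns (2.66, 4.60 and 4.40 CPM) lay within the range of the inputs (2.48 to 18.4 CPM), with a log2 fold change of -1.08 and an FDR of 0.322. It was lower after DHPG (log2 -1.15 ± 0.41, FDR = 0.0137, or 0.214 without replicate 3). It was also lower in knockdown pulldowns (FDR = 0.00995, or 0.0855 without depolarized input replicate 2), in 4 of 4 cultures. Resting knockdown pulldowns had 1.33 and 1.71 CPM against 4.33 and 3.95 CPM in inputs, and the depolarized pulldowns had no count against 0.778 and 4.36 CPM, so that no fold is given. Of its 25-base words, 76.4% occur more than once in the genome.

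Whether enrichment was particular to the postsynaptic bait was tested as the difference between the TurboID-PSD95 and Pan-TurboID ratios. No long noncoding RNA gene passed (0 of 477; 14 had an unadjusted p under 0.05), and no gene of the whole table did (0% of 13491). For Meg3 the TurboID-PSD95 ratio exceeded the Pan-TurboID ratio by 0.66 ± 0.53 on the log2 scale, for Miat by 0.81 ± 0.47 and for Rian by 0.19 ± 0.73. For Zfas1 the difference was -0.12 ± 0.37. At these standard errors, a difference of 1 log2 unit lies within 2 SE of the value for Meg3, Miat and Rian. The change of the TurboID-PSD95 ratio with KCl likewise gave 0 calls, with 34 at an unadjusted p under 0.05 (0% of all genes).

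The snoRNA hosts included genes higher and genes lower in pulldowns. Of 16 hosts tested at rest, 3 were higher (Rian, Snhg1 and Snhg8) and 3 lower (Zfas1, Epb41l4aos and Snhg5). After KCl 2 were higher and none lower, and in Pan-TurboID 1 was higher and 5 were lower. After DHPG 8 of 14 were higher and 4 lower, and in knockdown neurons 8 of 15 were higher and 4 lower. The counts at rest are near the shares over all genes (14% higher and 16.9% lower). Those shares were 11% and 6.41% after KCl, 16.2% and 17.6% in Pan-TurboID, 40.0% and 39.9% after DHPG and 27.5% and 32% in knockdown neurons. In several hosts, snoRNA genes lie within the exons of the transcript counted here. Counts inside snoRNA genes made up 49.6% of all counts of Snhg1 (chr19:8723487-8726442, plus strand), 41.6% of Snhg8, 31.6% of Snhg12 and 15.3% of Gas5. A small Cajal body RNA gene took 46.0% of Snhg20, and snoRNA genes 10.2% of Rian.

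Within Snhg1, the 2 kinds of footprint went in opposite directions. After DHPG, counts inside the snoRNA genes were 39.5 to 59.0 CPM in pulldowns and 6.64 to 7.92 CPM in inputs, while counts outside them were 7.89 to 12.3 CPM in pulldowns and 19.7 to 24.0 CPM in inputs. In resting knockdown neurons the Snhg1 counts inside were 87.2 and 97 CPM in pulldowns and 6.03 and 6.24 CPM in inputs, and outside 13.7 and 13.9 against 21.5 and 32.1 CPM. None of these pairs of ranges overlapped. In the resting libraries of the KCl experiment the Snhg1 counts outside the snoRNA genes were 12.9 to 20.2 CPM in 6 pulldowns and 23.3 to 48.5 CPM in 6 inputs, again without overlap, and inside them 8.13 to 160 and 0.766 to 9.74 CPM, with overlap.

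Refitting all genes without the counts in small RNA genes, an alternative added after the data were seen, turned the sign for Snhg1 and Snhg8. At rest, Snhg1 changed from 1.49 (FDR = 0.00329) to -1.04 (FDR = 0.00822), and Snhg8 from 0.95 (FDR = 0.0168) to -1.04 (FDR = 0.0232). With all counts but without replicate 3, the FDR at rest was 0.185 for Snhg1 and 0.113 for Snhg8, and without replicate 2 it was 0.238 for Snhg8. After DHPG, Snhg1 changed from 1.17 to -0.93, Snhg8 from 0.92 to -1.15, Snhg12 from 1.33 to -0.43 and Gas5 from 0.23 to -0.41, all past the FDR before and after (with all counts, Gas5 missed it without replicate 1, FDR = 0.509, and without replicate 3, FDR = 0.0664). In knockdown neurons Snhg1 changed from 1.79 to -1.76 (FDR = 2.70e-07) and Snhg12 from 0.48 to -0.64 (with all counts, the FDR of Snhg12 was 0.0636 to 0.158 in the 5 of 8 fits without a single library that lost the call). Gas5 at rest went from -0.53 (FDR = 0.122) to -1.0 (FDR = 0.00384). With all counts its pulldown was higher than its input in 0 of 12 cultures of the KCl experiment. Rian kept its value (3.91 and 3.90 at rest), and Snhg20 kept it after DHPG (1.68 and 1.73) but not in knockdown neurons (3.67 and 1.08, FDR = 0.0946).

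**Figure D4:**
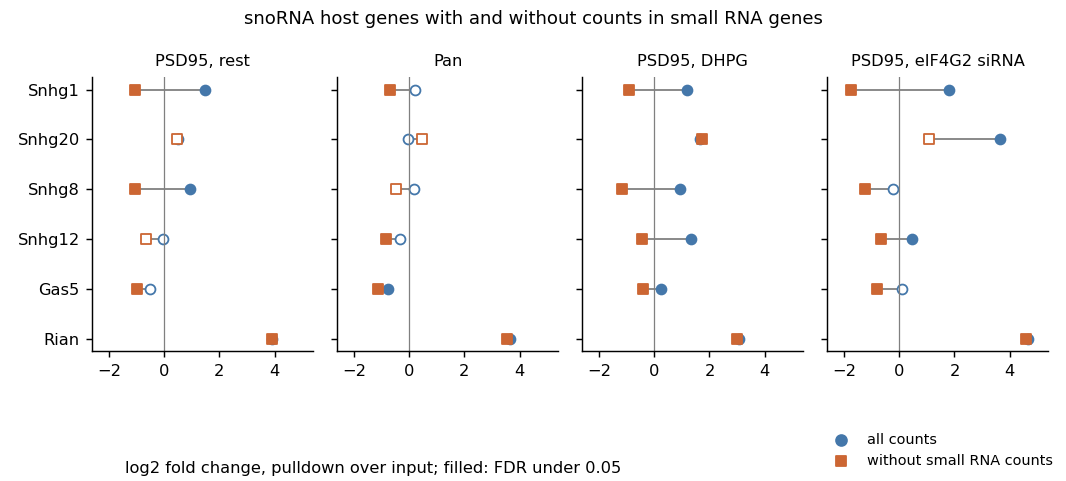
Log2 fold change of pulldown over input for 6 snoRNA or scaRNA hosts, with all counts (circles) and without counts in small RNA genes (squares), in 4 comparisons; filled symbols passed an FDR of 0.05. Snhg1 moves from 1.49 to -1.04 at rest and from 1.79 to -1.76 in knockdown neurons, and Rian stays near its value in each panel.

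Over all members, genes overlapping a small RNA gene on their own strand (misc_RNA included) gave 16 higher and 8 lower of 49 tested at rest, with a median of 0.29. They gave 11 higher and 1 lower after KCl (median 0.10) and 12 higher and 9 lower in Pan-TurboID (median -0.07). After DHPG 28 were higher and 10 lower of 42 (median 1.45), and in knockdown neurons 24 were higher and 4 lower of 40 (median 2.06). Over all genes, 14%, 11%, 16.2%, 40.0% and 27.5% were higher and 16.9%, 6.41%, 17.6%, 39.9% and 32% lower at rest, after KCl, in Pan-TurboID, after DHPG and in knockdown neurons. Genes whose exons overlap no other gene gave 6 higher and 39 lower of 182 at rest (median -1.16), 4 higher and 10 lower after KCl (median -0.72) and 2 higher and 49 lower in Pan-TurboID (median -1.03). They gave 15 higher and 92 lower of 129 after DHPG (median -1.24), and 16 higher and 45 lower of 116 in knockdown neurons (median -0.90). Rmrp, almost wholly a small RNA by its counts (99.9%), was higher at rest (628, 318 and 765 CPM against 34.7 to 156 CPM in resting inputs; log2 2.35 ± 0.77, FDR = 0.03, or 0.239 without replicate 3 and 0.0614 without replicate 2). B930036N10Rik was higher too (log2 3.57 ± 0.88, with an FDR of 0.107 without replicate 3). The snRNA-bearing 2900060B14Rik was lower, with 5.04, 6.90 and 3.42 CPM in resting TurboID-PSD95 pulldowns and 13.5 to 32.5 CPM in the resting inputs (log2 -2.02 ± 0.29, FDR = 0.000166).

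Hosts of microRNAs differed among themselves. Of 9 tested at rest, 4 were higher (Meg3, Mirg, Mir124a-1hg and 1700016P03Rik) and 2 lower (C130071C03Rik and Mir9-3hg). After KCl 3 were higher and none lower, in Pan-TurboID 3 and 4, after DHPG 5 and 4 of 9, and in knockdown neurons 5 and 1 of 10. The shares of all genes higher and lower were 14% and 16.9% at rest, 11% and 6.41% after KCl, 16.2% and 17.6% in Pan-TurboID, 40.0% and 39.9% after DHPG, and 27.5% and 32% in knockdown neurons. Mir124a-1hg, which gives rise to the neuronal miR-124, had 26.2, 21.3 and 21 CPM in resting TurboID-PSD95 pulldowns and 2.29 to 6.16 CPM in the resting inputs, without overlap (log2 2.84 ± 0.49, FDR = 0.000556, or 0.061 without replicate 3). The miR-9 hosts went the other way. C130071C03Rik had 27.3, 38.2 and 23.4 CPM in these pulldowns and 46.0 to 73.3 CPM in the inputs (log2 -0.92 ± 0.22, FDR = 0.00355, or 0.0923 without replicate 3), and Mir9-3hg was at -1.50 ± 0.46 (0.219 without replicate 3). In knockdown neurons C130071C03Rik was at 0.26 and Mir9-3hg at -0.36, neither past the FDR. Mir22hg fell by 0.80 ± 0.27 in Pan-TurboID (FDR = 0.221 without replicate 3) and was at -0.60 at rest (FDR = 0.192), in fits that do not pair input and pulldown. Its pulldown was higher than its input in 0 of 12 cultures of the KCl experiment.

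Within spliced members, footprints were unevenly spread over exons. Among 382 tested genes with 2 or more exons, a median of 55.7% of counts lay in the first exon, which held a median of 15% of the length, and 123 genes had over 80% there. Genes higher in the resting TurboID-PSD95 pulldown had a median of 19.4% of counts in the first exon (n = 19; 6.88% of length), and lower genes 64.1% (n = 67; 12.2% of length). After DHPG these medians were 22.6% (n = 39) and 72.1% (n = 163), and in knockdown neurons 25.3% (n = 36) and 80.1% (n = 84). The counts of 1500004A13Rik lay 98.5% in a first exon of 4.69% of its length, those of 2410006H16Rik 95.8% (31.8% of length) and those of Snhg5 89.8% (31.9%). In Meg3 and Firre the first exon did not stand out. Meg3 had 10.0% of its counts in a first exon of 7.87% of its length, and Firre 2.63% in 2.20%. Meg3 was nevertheless unevenly covered. Its exon 4, of 84 bases, held 30.1% of its counts, and its last exon, of 13087 bases, held 24.3%. Exons 2 to 4 of Meg3 had 105 to 408 counts per base, and its last exon 2.11. These shares pool all libraries and were not tested. The higher genes had a median transcript length of 3360 bases at rest, and the lower genes 2120 bases.

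Few long noncoding RNAs passed the FDR for a change with depolarization, and their median lay above that of all genes. In inputs, 16 of 477 were higher after KCl and 1 lower (14.7% of all 13491 genes called, 5.82% higher and 8.90% lower), with a median log2 fold change of 0.39 beside -0.01 over all genes. In TurboID-PSD95 pulldowns 9 were higher and 1 lower (6.46% of all genes called, 3.28% higher and 3.18% lower, with a median of 0.78 beside 0.05), and in Pan-TurboID pulldowns 2 were higher and none lower (4.85% of all genes called, 1.80% higher and 3.05% lower, with a median of 0.44 beside 0.04). The likelihood ratio test made 36, 36 and 12 calls in these 3 comparisons, where it called 17.7%, 9.28% and 6.72% of all genes. Leaving out replicate 3 reduced the 17, 10 and 2 calls to 1, 0 and 0, and those over all genes from 1986, 871 and 654 to 537, 97 and 74. Without the ribosomal RNA loci, the class had 0.376 to 0.481 counts per 100 CDS counts in resting and 0.464 to 0.621 in depolarized inputs, a 1.29-fold difference (exact permutation test of 6 against 6, p = 0.00649, adjusted 0.00974). By replicate it was 1.54-, 1.12- and 1.23-fold (exact permutation p = 0.25, the smallest possible); with all loci it was 1.43-fold (exact permutation p = 0.487) and 6.78-, 0.692- and 0.626-fold by replicate. In pulldowns the share without these loci was 1.08-fold (exact permutation p = 0.766), and 2.01-, 0.906- and 0.685-fold by replicate. Oligodendrocyte markers had a median sum of 190 CPM in resting and 85.9 CPM in depolarized inputs (104 to 240 and 43.1 to 147, with overlap), and of 69.2 and 32.5 CPM in pulldowns. Their part in the KCl results was not tested. The labels give no silencing for resting neurons, so that the silencing before KCl and the KCl itself cannot be told apart.

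Bc1 was the only member called lower after KCl in inputs of the KCl experiment. The 6 resting inputs had 2.48 to 18.4 CPM and the 6 depolarized inputs 0 to 1.82 CPM, without overlap, and 3 of the depolarized inputs had no count. The log2 fold change was -4.15 ± 0.79 (FDR = 0.000582). In knockdown inputs it had 4.33 and 3.95 CPM at rest and 0.778 and 4.36 CPM after KCl, with 1 depolarized input above both resting ones (log2 -0.81 ± 0.90, FDR = 0.603). Of the 8 input calls of named genes, it was the only one that passed whichever replicate was left out; the others were 1700016P03Rik, Gm3764, 1700048O20Rik, Gt(ROSA)26Sor, Snhg1, Trmt61b and B230209E15Rik.

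Of the genes that rose, 1700016P03Rik hosts miR-132 and miR-212, microRNAs known to respond to CREB. It had 0.922, 0.955 and 0 CPM in resting and 3.41, 4.46 and 4.21 CPM in depolarized TurboID-PSD95 inputs, and 0.759, 0.881 and 0.766 against 0.475, 2.25 and 3.51 CPM in Pan-TurboID inputs. All but 1 of the depolarized inputs exceeded every resting input (log2 2.01 ± 0.55, FDR = 0.014; 0.112 without replicate 2 and 0.284 without replicate 3). At rest it was also higher in TurboID-PSD95 pulldowns (2.66, 3.55 and 3.42 CPM; log2 2.10 ± 0.64, FDR = 0.0156, or 0.106 without replicate 2 and 0.182 without replicate 3). Pooled over all libraries, its first exon of 38 bases (4.4% of the length) held 35.1% of its counts in inputs and 72.6% in pulldowns.

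Gm3764, a lincRNA at chr3:88206813-88211295 (plus strand), had 4.15 to 7.83 CPM in resting and 7.94 to 19.6 CPM in depolarized inputs, which did not overlap (log2 1.27 ± 0.33, FDR = 0.00964). In TurboID-PSD95 pulldowns it had 2.24, 3.34 and 2.44 CPM at rest and 16.1, 17.1 and 10.9 CPM after KCl (log2 2.47 ± 0.51, FDR = 0.00347), also without overlap. 1700048O20Rik rose from 6.64 to 11.7 CPM at rest to 15.2 to 20.6 CPM (log2 1.00 ± 0.27). Gt(ROSA)26Sor, the widely transcribed locus used for transgene insertion, rose by 1.62 ± 0.43 on the log2 scale (FDR = 0.0115). Without replicate 3 the FDR of the input calls was 0.125 for Gm3764, 0.121 for 1700048O20Rik and 0.164 for Gt(ROSA)26Sor, and that of the pulldown call of Gm3764 was 0.0968. Without replicate 1 it was 0.0691 for Gm3764 and 0.067 for Gt(ROSA)26Sor in inputs, and without replicate 2 it was 0.103 for 1700048O20Rik and 0.0685 for Gt(ROSA)26Sor.

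**Figure D5:**
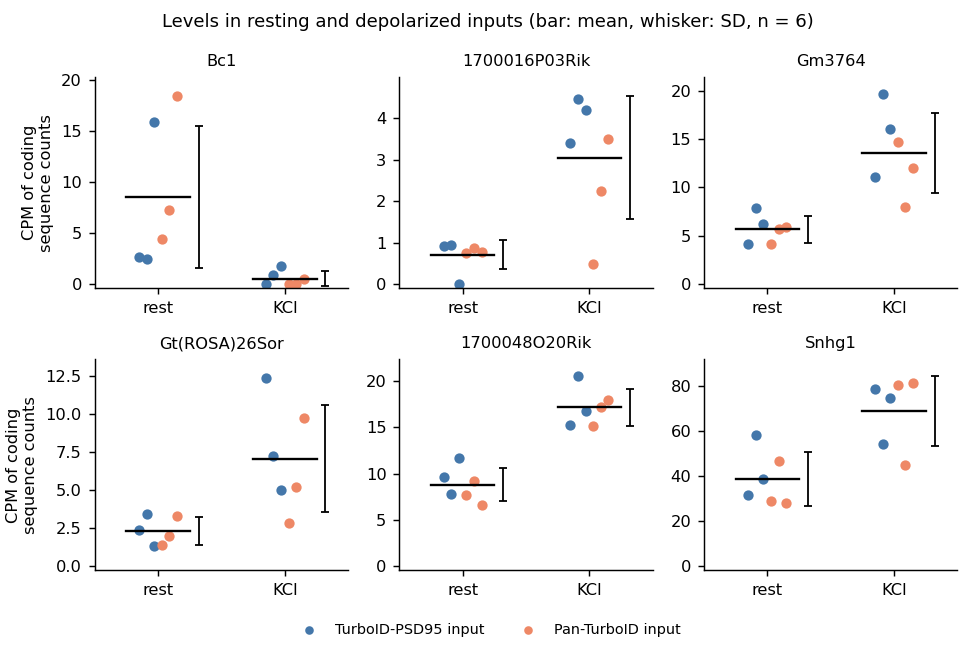
Counts per 1000000 CDS counts (CPM) of 6 long noncoding RNA genes in resting and depolarized inputs of the KCl experiment, with 1 point per library, the mean as a bar and the SD as a whisker (n = 6 in each). Bc1 is at 2.48 or above at rest and at 1.82 or below after KCl, and the ranges of Gm3764 and 1700048O20Rik do not overlap.

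Snhg1 rose with KCl in inputs of both experiments. It had 28.1 to 58.3 CPM in resting and 44.9 to 81.5 CPM in depolarized inputs of the KCl experiment, with overlap (log2 0.86 ± 0.29, FDR = 0.0471, or 0.16 without replicate 1 and 0.289 without replicate 3), and 27.5 and 38.3 against 80.9 and 69.3 CPM in knockdown inputs (log2 1.19 ± 0.17, FDR = 1.27e-05). Outside the snoRNA genes the input levels were 23.3 to 48.5 and 37.7 to 78.0 CPM in the KCl experiment and 21.5 to 32.1 and 56.3 to 65.1 CPM in knockdown neurons. In knockdown pulldowns Snhg1 rose by 1.28 ± 0.16, where the counts inside the snoRNA genes were 87.2 and 97 CPM at rest and 216 and 281 CPM after KCl; without the small RNA counts the change was -0.56 (FDR = 0.322). In TurboID-PSD95 pulldowns of the KCl experiment the sign turned the other way, from -0.80 (FDR = 0.26) to 1.1 without these counts (FDR = 0.0441), and in Pan-TurboID pulldowns the values were 0.54 and 0.74, neither past the FDR.

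In TurboID-PSD95 pulldowns, 2900060B14Rik rose with KCl from 5.04, 6.90 and 3.42 to 18.5, 19.4 and 14.6 CPM (log2 1.74 ± 0.32, FDR = 0.00125, or 0.0879 without replicate 3), without overlap. Gm42918, an antisense gene, had no count in the 3 resting pulldowns and 0.487, 3.28 and 2.12 CPM after KCl, so that no ratio can be given. Gm26945 fell from 30.8, 14.8 and 19.1 CPM to 5.84, 1.23 and 1.21 CPM (log2 -3.08 ± 0.83, FDR = 0.0252, or 0.263 without replicate 2 and 0.236 without replicate 3). In Pan-TurboID pulldowns the genes that rose were B230209E15Rik (13.5 to 17.3 CPM at rest and 23.2 to 39.6 CPM after KCl; log2 1.18 ± 0.30) and Gm48045 (log2 2.78 ± 0.83), both missing the FDR without any 1 of the replicates (0.0506 to 0.343).

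In eIF4G2 knockdown neurons 9 of 284 rose with KCl in inputs and none fell (18.9% of all 12516 genes called, 8.33% higher and 10.6% lower), and in pulldowns 13 rose and 7 fell (21.7% of all genes called, 9.64% higher and 12% lower). 2410006H16Rik, a spliced processed_transcript gene, had 64.2 and 74.3 CPM in resting and 151 and 164 CPM in depolarized knockdown inputs (log2 1.18 ± 0.18, FDR = 2.51e-05). 2610035D17Rik rose in inputs (5.72 and 5.86 to 26.2 and 18.8 CPM; log2 1.96 ± 0.43) and in pulldowns (log2 2.79 ± 0.62). Miat fell in pulldowns, from 242 and 302 to 126 and 164 CPM (log2 -0.91 ± 0.15, FDR = 5.57e-05), and Meg3 fell by 0.46 ± 0.13. Rian had 98.1 and 84.1 CPM at rest and 118 and 230 CPM after KCl (log2 0.91 ± 0.23), a call that DESeq2 did not make (FDR = 0.205). Single libraries were also left out, an alternative added after the data were seen that leaves 1 library in a group. The number of calls changed with the library left out, in inputs more than in pulldowns. Such a change is not read as particular to long noncoding RNA genes. The calls of 2410006H16Rik in inputs and of 2610035D17Rik and Miat in pulldowns were kept in all 8 of these fits. Without depolarized input replicate 1 the FDR of 2610035D17Rik in inputs was 0.0768, without depolarized pulldown replicate 1 that of Meg3 was 0.283 (log2 -0.19), and Rian had an FDR of 0.338 without depolarized pulldown replicate 2 (log2 0.35) and 0.0838 without resting pulldown replicate 2.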

How the data were processed

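Ribosome-protected footprints were counted by the authors in exon segments with plastid (5′ ends of alignments of 25 to 100 nt, offset 0, mm10) after alignment with Rsubread, and the deposited files hold raw counts per segment. The deposited RPKM values and the deposited signal (count divided by segment length) were not used. Strand use and the handling of multi-mapped reads are not given in the sources used here. Long noncoding RNA gene segments that contain a coding segment of the other strand held 52016 counts, beside 1150349 in those coding segments (4.52%).

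Segments were summed per gene and joined to GENCODE M21 by transcript, without version. Counts of coding sequences and of long noncoding RNA genes were fitted in 1 table per experiment with edgeR 4.0.16 (R 4.3.3; filterByExpr, TMM factors and library sizes from coding sequences, robust quasi-likelihood F test, Benjamini-Hochberg FDR 0.05). Scripts were tested on simulated data. P-values measure the spread between these libraries. Shares were compared with exact permutation tests over all sign flips or all regroupings of the values. The members, gene lists and tests were chosen with earlier results of these data known. Genes named are the 20 with the highest mean level, the 4 with the smallest p in each direction of a comparison among called genes whose replicates all moved that way, up to 6 members of at least 1 CPM from each list, and the ribosomal RNA loci; other names were chosen after their values were seen. For counts inside small RNA genes, a gene was assigned where at least 80% of it lay in an exon, and misc_RNA was left out. The class of genes overlapping a small RNA gene takes any overlap on the same strand, misc_RNA included.

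Input and pulldown of a culture, aliquots of a lysate by the methods, deviated together in the KCl experiment (correlations 0.129 to 0.455 over 12 pairs). The replicate block for pulldown against input is the replicate number within a condition. It groups the cultures of both baits, and so does not pair by single culture. For KCl against rest it is the replicate number over both conditions. In the DHPG experiment these correlations were -0.0837 to 0.0385. In the knockdown experiment the 2 libraries of a group mirror each other about their mean, so both pairs of a condition give the same value. It was 0.00582 at rest and -0.0043 after KCl, which does not show that input and pulldown are unpaired. Alternatives were edgeR's likelihood ratio test, DESeq2 1.42.0, other size factors, no filter, another transcript per gene, genes sharing no exon, the replicate block and leaving out a replicate or, in the knockdown experiment, a library.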

Additional observations from a re-analysis of the deposited data

How the results depend on the processing

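Of 236 calls of named genes, 210 kept their direction and FDR under every alternative that held them, except leaving out a replicate, and 119 under that as well. Not every alternative held every call: genes sharing no exon held 76, the fit without small RNA counts 216 and DESeq2 232. Some of these genes were named for a small p and for replicates that all moved the same way, so their stability is partly set in advance. The call was lost in 140 of 513 fits without a replicate, and in 53 of 520 without a single library of the knockdown experiment. These fits have fewer libraries. Replicate 3 mattered most in the KCl experiment. In the knockdown experiment leaving out a replicate number in all groups leaves no residual degrees of freedom, so single libraries were left out instead (added after seeing the data), with the lone library of a group assumed to vary like the other groups. Enough counts for a test were present in 504 of 9253 genes, and 5460 had no count in any library. Whether deeper libraries would bring more genes to a test was not tested.

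Counts of called genes moved by over 1.5 times as follows. For KCl in inputs (17 calls), the likelihood ratio test gave 36, DESeq2 26, no filter 26 and genes sharing no exon 8, with 1 to 20 without a replicate (1 without replicate 3, 5 without replicate 2). Of all genes, 14.7% were called in the main fit. The likelihood ratio test called 17.7%, DESeq2 18.2%, no filter 9.97% and genes sharing no exon 15.2%, and 6.43% were called without replicate 2. For KCl in TurboID-PSD95 pulldowns (10) the same alternatives gave 36, 21, 25 and 5, with 0 to 31 without a replicate (31 without replicate 1, 2 without replicate 2). Over all genes they called 9.28%, 10.2%, 5.54% and 6.62%, beside 6.46% in the main fit, 10.9% without replicate 1 and 0.862% without replicate 2. For KCl in Pan-TurboID pulldowns (2) the likelihood ratio test gave 12, no filter 8, the replicate block 4, library sizes over coding and noncoding counts 1 and genes sharing no exon 1, with 0 to 3 without a replicate. Over all genes these were 6.72%, 3.62%, 7.29%, 4.71% and 4.99%, beside 4.85% in the main fit. At rest (121, beside 30.9% of all genes) genes sharing no exon gave 46 (31.1% of all genes), with 6 to 115 without a replicate. After KCl (39) the likelihood ratio test gave 74, no filter 64, genes sharing no exon 14 and the replicate block 80, with 5 to 43 without a replicate (5 without replicate 3, 19 without replicate 1). Over all genes these 4 alternatives called 21.1%, 13.8%, 17.7% and 32.2%, beside 17.4% in the main fit and 8.3% without replicate 1. Pan-TurboID (132, beside 33.8% of all genes) had 51 with genes sharing no exon (34.1% of all genes) and 34 to 118 without a replicate (34 without replicate 3, 61 without replicate 2). The bait difference and the change with KCl (0 each) had 1 and 2 calls without a filter, beside 2 and 4 calls over all genes. DHPG (266, beside 79.9% of all genes in the main fit) had 431 without a filter and 107 with genes sharing no exon. Knockdown pulldowns over inputs (166, beside 59.5% of all genes) had 61 with genes sharing no exon. KCl in knockdown inputs (9, beside 18.9% of all genes in the main fit) gave 29 with the likelihood ratio test, 16 with the transcript of the highest count and 4 with genes sharing no exon. This count also moved without 1 library. KCl in knockdown pulldowns (20, beside 21.7% of all genes in the main fit) gave 45 with the likelihood ratio test and 6 with genes sharing no exon. Genes sharing no exon are fewer, and leave out Meg3, Miat and Malat1. They are 182 of 477 tested in the KCl, 129 of 319 in the DHPG and 116 of 284 in the knockdown experiment. For the alternatives in the DHPG and knockdown experiments the shares over all genes are not given here. Those counts are therefore not read as particular to long noncoding RNA genes. The replicate block changed no other count by over 1.5 times.

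The share in pulldown over input (log2 0.12) was 0.79 without ribosomal RNA loci (exact permutation p = 0.000488), -1.05 for genes sharing no exon and -0.10 to 0.36 without a replicate. With KCl in inputs (0.52) it was 0.36 without ribosomal RNA loci, 0.33 without B930036N10Rik as well, 0.31 without small RNA counts as well (added after seeing the data), 0.32 for genes sharing no exon and -0.60 to 1.12 without a replicate. In pulldowns (0.23) it was -0.53 to 0.62 without a replicate.

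Named genes reversed in 11 cases. The transcript of 1110038B12Rik with the highest count gave 4.77 at rest (-0.93 for the longest). Without small RNA counts the pulldown ratio was -1.04 for Snhg8 and -1.04 for Snhg1 at rest, -0.52 for Snhg8 after KCl, -0.41 for Gas5, -0.43 for Snhg12, -1.15 for Snhg8 and -0.93 for Snhg1 after DHPG, and -0.64 for Snhg12 and -1.76 for Snhg1 in knockdown neurons, where the change of Snhg1 with KCl in pulldowns was -0.56. Removing those counts is what turned these signs.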

Other observations

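Some members are listed by RefSeq as protein_coding although GENCODE M21 gives them no coding sequence. Of the 14 such genes at 1 CPM or more, Trerf1 averaged 25.5 CPM with an open reading frame of 1122 codons in its counted transcript, and Spata5l1 averaged 19.2 CPM with one of 438 codons. Gm5165 (7.49 CPM, 667 codons) and Gm20939 (1.63 CPM, 720 codons) also had long frames, and Gm15246 (1.41 CPM) had one of 11 codons. Over the 418 genes at 1 CPM or more the median longest frame was 83 codons, and over the 5460 genes without a count it was 55. Their transcripts differ in length as well, with medians of 1980 and 770 bases, and frames were not compared at equal length.

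In knockdown neurons the ribosomal RNA locus Gm42418 was at 8860 and 10400 CPM in resting inputs and 68400 and 99800 CPM in resting pulldowns (log2 2.49 ± 0.17 over both conditions). After DHPG it was at 4830, 3990 and 4550 CPM in inputs and 9730, 9690 and 11600 CPM in pulldowns (log2 1.42 ± 0.08). Neither pair of ranges overlapped. In the KCl experiment its pulldowns (4470 to 64700 CPM) overlapped its inputs (2050 to 59700 CPM), and the pulldown was higher in 5 of 12 cultures.

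C230004F18Rik, a lincRNA of the X chromosome with 8 exons, was higher in pulldowns after DHPG (79.7, 78.1 and 68.8 against 13.5, 12.3 and 16 CPM; log2 2.64 ± 0.11) and in knockdown neurons (log2 2.34 ± 0.27). In the KCl experiment a single depolarized Pan-TurboID culture, replicate 1, stood out in both fractions, at 98.7 CPM in the input and 500 CPM in the pulldown.

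Snhg20 in knockdown pulldowns held 18.8 and 19.7 CPM in its scaRNA gene at rest and 50.0 and 71.0 CPM after KCl, beside 0.309 to 1.56 CPM in the inputs. Outside the scaRNA gene its pulldowns held 2.82 to 8.02 CPM and its inputs 1.31 to 3.71 CPM.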
